A study of Mus musculus with 15 samples.

Results

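The 35 genes described here encode factors that make ribosomes, out of 23337 gene symbols in the count files. They were listed by name, and all 35 symbols were present in the 15 libraries. The list holds subunits of RNA polymerase I, the small nucleolar ribonucleoproteins (snoRNPs), and nucleolar chaperones with other nucleolar proteins. It also holds the processing factors of the small and large ribosomal subunits. RNA was sequenced from progenitor cells sorted out of mouse bone marrow. Common myeloid progenitors (CMP) were gated as negative for lineage markers and Sca1, positive for CD117 and CD34 and low for CD16/32. Granulocyte-monocyte progenitors (GMP) had the same gate but were high for CD16/32. The groups were Trappc1KO CMP (KO CMP, n = 4), Trappc1WT CMP (WT CMP, n = 4), Trappc1KO GMP (KO GMP, n = 3) and Trappc1WT GMP (WT GMP, n = 4), all with treatment given as none. The Trappc1 protein belongs to the TRAPP complexes, tethering factors of vesicle traffic between the endoplasmic reticulum and the Golgi. The sources used here do not give the Cre driver, the deleted part of Trappc1, the age of the mice or any pooling of animals. KO GMP libraries carry the numbers 1, 3 and 4, and none of the 15 libraries is a KO GMP library 2. Nothing in the labels ties each library to its own animal, and the p-values reflect only how much libraries of a group vary, which may be partly technical.

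Ribosomes are built in the nucleolus. RNA polymerase I transcribes one long precursor ribosomal RNA (rRNA). Box C/D snoRNPs then guide the methylation of its riboses and box H/ACA snoRNPs guide the conversion of uridines to pseudouridines. A large assembly, the small subunit processome, folds and cuts the part that becomes the small subunit, and a separate set of factors builds the large subunit. Genes of this program are widely known as targets of MYC, which binds the E-box CACGTG, and dividing progenitors are known for high demand for ribosomes.

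The promoter windows of the genes were read from RefSeq (GRCm38.p6), each running from 250 bases before to 50 after the start of the gene, and 30 of the 35 symbols matched. Fbl, Npm1, Bop1, Rrs1 and Rrp12 had no entry in the table. The motif CACGTG, searched on both strands, was found in 7 of the 30 windows (23.3%), against 8.09% of the windows of all 27025 genes. These 7 were Mybbp1a, Nop2, Pes1, Tsr1, Utp18, Utp20 and Wdr43. The ETS-type motif CCGGAAG was found in 10 of 30 windows (33.3%), against 9.93% of all windows, and TATAAA in 3 of 30 (10.0%), against 15.7%. None of the 3 words contains another. A match describes the letters of a window and is not evidence of binding. The windows of 4 genes with an E-box are printed because of the known link of this motif to MYC. The 4 were picked from the 7 after their values were seen. Ncl is printed beside them as a highly expressed gene whose window holds no CACGTG. Capitals mark CACGTG, and each sequence runs 5′ to 3′ on the strand of the gene. The windows are chr11:72441077-72441376 on the plus strand for Mybbp1a, chr6:125131633-125131932 on the plus strand for Nop2, chr10:88826765-88827064 on the minus strand for Utp20, chr17:71615965-71616264 on the plus strand for Wdr43 and chr1:86359406-86359705 on the minus strand for Ncl.
Mybbp1a: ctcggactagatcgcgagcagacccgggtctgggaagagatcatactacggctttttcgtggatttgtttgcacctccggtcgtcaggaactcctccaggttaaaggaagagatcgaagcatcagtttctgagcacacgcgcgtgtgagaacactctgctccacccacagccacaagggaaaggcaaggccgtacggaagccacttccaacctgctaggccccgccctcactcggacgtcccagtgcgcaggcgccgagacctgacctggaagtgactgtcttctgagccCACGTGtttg
Nop2: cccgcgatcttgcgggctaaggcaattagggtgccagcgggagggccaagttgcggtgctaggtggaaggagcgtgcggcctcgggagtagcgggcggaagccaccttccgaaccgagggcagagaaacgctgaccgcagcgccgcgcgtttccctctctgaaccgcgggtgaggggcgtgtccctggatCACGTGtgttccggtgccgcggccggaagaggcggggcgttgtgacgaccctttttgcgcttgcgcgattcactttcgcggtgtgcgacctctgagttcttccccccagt
Utp20: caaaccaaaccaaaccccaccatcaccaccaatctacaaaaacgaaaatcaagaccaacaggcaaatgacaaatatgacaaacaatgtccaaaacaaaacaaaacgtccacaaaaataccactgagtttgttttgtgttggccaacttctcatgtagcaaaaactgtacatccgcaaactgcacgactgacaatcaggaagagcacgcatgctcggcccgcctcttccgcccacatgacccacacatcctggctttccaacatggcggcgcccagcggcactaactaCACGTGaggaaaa
Wdr43: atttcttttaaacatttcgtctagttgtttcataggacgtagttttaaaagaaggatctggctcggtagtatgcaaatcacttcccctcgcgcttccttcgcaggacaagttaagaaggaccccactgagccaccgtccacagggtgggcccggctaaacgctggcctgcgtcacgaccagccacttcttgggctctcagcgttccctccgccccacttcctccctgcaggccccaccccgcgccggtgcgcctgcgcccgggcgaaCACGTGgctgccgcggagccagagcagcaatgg
Ncl: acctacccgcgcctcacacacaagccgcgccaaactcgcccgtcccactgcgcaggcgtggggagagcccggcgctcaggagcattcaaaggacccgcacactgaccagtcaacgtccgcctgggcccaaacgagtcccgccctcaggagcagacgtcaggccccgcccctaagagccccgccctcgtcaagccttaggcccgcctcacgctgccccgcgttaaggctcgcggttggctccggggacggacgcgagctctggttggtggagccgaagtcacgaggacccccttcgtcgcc

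Library totals ran from 61.3 to 120.3 M units of the deposited estimated counts. Trappc1 did not overlap between genotypes in either cell type. It measured 3.83 to 13.4 CPM (counts scaled to library size with TMM factors) in KO CMP against 18.4 to 26.2 CPM in WT CMP. In KO GMP it measured 6.09 to 25.2 CPM, against 30.9 to 41.3 CPM in WT GMP. KO CMP libraries 1 and 2 held 5.56 and 3.83 CPM, and KO GMP library 1 held 6.09 CPM. KO CMP libraries 3 and 4 kept 11.7 and 13.4 CPM, against 18.75 and 25.2 CPM in WT CMP libraries 3 and 4. KO GMP libraries 3 and 4 kept 24.1 and 25.2 CPM, against 30.9 and 33.3 CPM in WT GMP libraries 3 and 4. 3 KO libraries stand apart: KO CMP libraries 1 and 2 and KO GMP library 1 held 109.5, 204 and 123 CPM of Xist, and no other library exceeded 2.17 CPM. The summed level of 5 stromal markers was 143, 204 and 70.0 CPM in those 3 libraries and at most 22.4 CPM in the others, where Col1a1 and Col3a1 were at or under 0.87 CPM. KO effects are given with and without these 3 and also by number set (libraries 1 and 2, or 3 and 4). The sort markers Kit and Cd34 were detected in every library. Fcgr3, the CD16 gene, measured 125 to 311 CPM in KO GMP, 239 to 314.5 CPM in WT GMP, 12.8 to 31.1 CPM in KO CMP and 36.6 to 115 CPM in WT CMP, and Ly6a, a Sca1 gene, still measured 11.6 to 45.2 CPM in CMP libraries.

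All 35 genes were tested among 15181 that passed the filter on low counts. Per length, nucleophosmin (Npm1) was the most abundant of them, at 897 CPM per kilobase of its principal annotated transcript averaged over all libraries, and Wdr12 the least, at 10.5 CPM per kilobase. Fbl, Ncl and Nop56 followed Npm1 at 281, 198 and 183 CPM per kilobase. The order depends on the length used: per kilobase of merged exons Npm1 stood at 549 CPM, Ncl at 159, Nhp2 at 157, Mybbp1a at 87.7, Nop56 at 84.0 and Fbl at 79.8. The polymerase subunits Polr1a and Polr1b stood at 12.5 and 21.7 CPM per kilobase. Summed over the 35 genes, the level was 8776, 8191, 8822 and 9271 CPM in KO CMP libraries 1 to 4, against 7293, 7572, 7069 and 7622 CPM in WT CMP libraries 1 to 4. It was 8487, 8380 and 8449 CPM in KO GMP libraries 1, 3 and 4, against 8134, 7782, 7422 and 7845 CPM in WT GMP libraries 1 to 4. The KO and WT sums did not overlap in either cell type. Ncl and Npm1 make up a large share of these sums, so the mean of log2(CPM + 0.5), in which each gene counts equally, was taken as well. By that mean KO CMP libraries stood at 7.19 to 7.31 and WT CMP libraries at 7.004 to 7.08, and KO GMP libraries at 7.20 to 7.25 and WT GMP libraries at 7.10 to 7.18. In bulk RNA of sorted cells, fewer cells with a high level and less RNA per cell cannot be told apart.

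**Figure D1:**
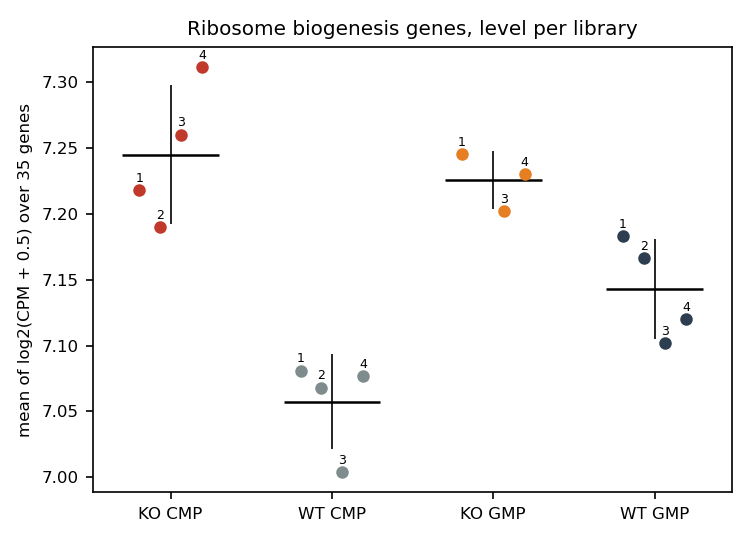
Mean of log2(CPM + 0.5) over the 35 genes (y axis) in each library of the 4 groups (x axis). Points are libraries with their number, the horizontal line is the group mean and the vertical line 1 SD. The 4 KO CMP libraries (7.19 to 7.31) lie above the 4 WT CMP libraries (7.004 to 7.08), and the 3 KO GMP libraries (7.20 to 7.25) above the 4 WT GMP libraries (7.10 to 7.18).

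KO CMP against WT CMP is the comparison named by the study's title, which concerns the upkeep and differentiation of CMP. The whole list lay slightly higher in KO CMP. All 35 genes had a positive log2 fold change (51.4% of all tested genes did), with a median of 0.18 (1.13-fold), against 0.01 over all tested genes. No single gene passed: edgeR's quasi-likelihood test with Benjamini-Hochberg adjustment over all tested genes called 0 members higher and 0 lower (0.0% of all tested genes in each direction), and the smallest adjusted p among the members was 0.192. 14 members were higher and 0 lower at an unadjusted p under 0.05 (4.68% and 6.92% of all tested genes). DESeq2 called 6 members higher (0.876% of all tested genes): Ncl, Nolc1, Nop14, Ddx10, Gnl3 and Npm1. With the library number as a block, edgeR called 0 members and 0 of all tested genes, and 24 members had an unadjusted p under 0.05. The share of all tested genes under that limit was not computed for the block fit. The 24 and the 14 above therefore cannot be compared. Without the 3 libraries that hold Xist, 31 of 35 were positive, the median was 0.20 and edgeR called 0. That fit sets KO CMP libraries 3 and 4 against all 4 WT CMP libraries, so genotype and number set are partly mixed in it. Against WT CMP libraries 3 and 4 alone all 35 were positive (below). For 7 members every KO CMP library lay above every WT CMP library (3.25% of all tested genes did so), namely Polr1b, Nolc1, Ncl, Gnl3, Mybbp1a, Nop14 and Ddx10. For 18 members each KO CMP library lay above the WT CMP library of the same number (13.4% of all tested genes). The 2 KO CMP libraries without Xist, 3 and 4, lay above all 4 WT CMP libraries for 21 members (12.8% of all tested genes).

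The class listed as nucleolar chaperones had the highest class median, 0.29 over 4 genes. It holds nucleolar proteins of mixed function: Ncl, Npm1, Gnl3 and Mybbp1a. Nucleolin (Ncl, chromosome 1, 86344719 to 86359400, minus strand, GRCm38), an RNA-binding protein of the early precursor, measured 1940.4, 1697, 1799 and 1887 CPM in KO CMP libraries 1 to 4, against 1387, 1522, 1379 and 1486 CPM in WT CMP libraries 1 to 4. Nucleophosmin (Npm1, chromosome 11, 33152287 to 33163206, minus strand), a chaperone of the granular nucleolus, measured 1592, 1386, 1663 and 1828 CPM in KO CMP libraries 1 to 4, against 1232, 1392, 1239 and 1413 CPM in WT CMP libraries 1 to 4. The groups did not overlap for Ncl, and for Npm1 KO CMP library 2 lay below WT CMP libraries 2 and 4. Nucleostemin (Gnl3, chromosome 14, 31012433 to 31019152, minus strand), a GTPase abundant in stem and dividing cells, measured 150.2, 139, 154 and 164 CPM in KO CMP libraries 1 to 4, against 132, 116, 118 and 134 CPM in WT CMP libraries 1 to 4. Mybbp1a (chromosome 11, 72441355 to 72451768, plus strand), a nucleolar protein that acts on rRNA gene transcription, measured 551, 576, 546 and 538 CPM in KO CMP libraries 1 to 4, against 453, 476, 469 and 459.8 CPM in WT CMP libraries 1 to 4. Every KO CMP library lay above every WT CMP library for both genes. The log2 fold changes were 0.34 ± 0.07 for Ncl (SE, edgeR adjusted p = 0.192), 0.29 ± 0.10 for Npm1 (adjusted p = 0.26), 0.28 ± 0.08 for Gnl3 (adjusted p = 0.226) and 0.25 ± 0.09 for Mybbp1a (adjusted p = 0.287). DESeq2 gave Ncl 0.35 with an adjusted p of 0.000484.

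**Figure D2:**
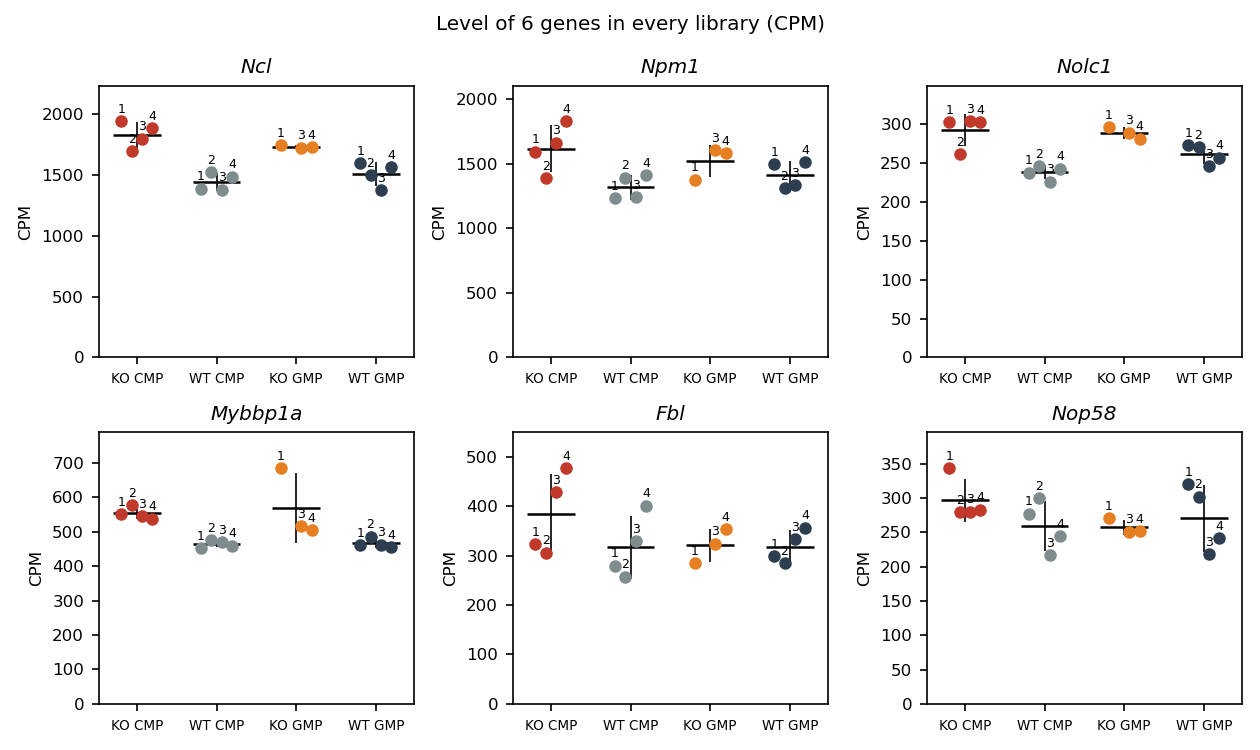
CPM (y axis, from 0) of 6 genes in every library of KO CMP, WT CMP, KO GMP and WT GMP; points are libraries with their number, horizontal lines group means and vertical lines 1 SD. Ncl, Nolc1 and Mybbp1a separate KO from WT in both cell types, Npm1, Fbl and Nop58 overlap between genotypes, and Mybbp1a in KO GMP library 1 (685 CPM) lies above the other 14 libraries.

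The polymerase subunits differed from each other. Polr1b, the second largest subunit of RNA polymerase I (chromosome 2, 129100995 to 129126594, plus strand), measured 103, 100, 93.3 and 94.2 CPM in KO CMP libraries 1 to 4, against 79.9, 80.5, 83.2 and 84.2 CPM in WT CMP libraries 1 to 4. Polr1a, the largest subunit, measured 119.7, 132, 106 and 97.3 CPM in KO CMP libraries 1 to 4, against 119, 132, 109 and 87.7 CPM in WT CMP libraries 1 to 4. Polr1b did not overlap between genotypes, while Polr1a was higher in libraries 1 and 2 than in libraries 3 and 4 within each genotype and overlapped. The log2 fold changes were 0.25 ± 0.08 for Polr1b (edgeR adjusted p = 0.254) and 0.03 ± 0.14 for Polr1a (adjusted p = 0.969). The change of Polr1a became -0.15 without the 3 Xist libraries, -0.05 without KO CMP library 2 and -0.08 without WT CMP library 4. In KO CMP libraries 3 and 4 against WT CMP libraries 3 and 4, both subunits were positive (0.05 or more).

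The snoRNP proteins were positive throughout in KO CMP, with class medians of 0.27 for the 3 box C/D genes and 0.25 for the box H/ACA genes with Nolc1. Fibrillarin (Fbl), the methyltransferase of box C/D snoRNPs, measured 323, 306, 428 and 478 CPM in KO CMP libraries 1 to 4, against 279.8, 257, 329 and 401 CPM in WT CMP libraries 1 to 4. Nop56, a core protein of the same particle, measured 369, 303, 417 and 457 CPM in KO CMP libraries 1 to 4, against 314, 284, 319 and 368 CPM in WT CMP libraries 1 to 4. Nop58, its partner, measured 344, 279.8, 280.1 and 283 CPM in KO CMP libraries 1 to 4, against 277, 299.5, 217 and 244 CPM in WT CMP libraries 1 to 4. For Fbl and Nop56 the libraries numbered 3 and 4 were the highest in each genotype, for Nop58 KO CMP library 1 was, and all 3 genes overlapped between genotypes. Their log2 fold changes were 0.28 ± 0.16, 0.27 ± 0.11 and 0.19 ± 0.13 for Fbl, Nop56 and Nop58 (edgeR adjusted p = 0.548, 0.388 and 0.621). Nolc1 (chromosome 19, 46075863 to 46085530, plus strand), a chaperone that binds both kinds of snoRNP, measured 303, 261, 304 and 303 CPM in KO CMP libraries 1 to 4, against 238, 246, 226 and 243 CPM in WT CMP libraries 1 to 4. Nhp2, a core protein of box H/ACA snoRNPs, measured 167, 155, 198 and 228 CPM in KO CMP libraries 1 to 4, against 147, 158, 155 and 188 CPM in WT CMP libraries 1 to 4. Nolc1 did not overlap, although KO CMP library 2 lay well below the other 3 KO libraries, and Nhp2 overlapped. Their log2 fold changes were 0.30 ± 0.07 for Nolc1 (edgeR adjusted p = 0.192) and 0.21 ± 0.13 for Nhp2 (adjusted p = 0.581). The pseudouridine synthase Dkc1 and its partner Gar1 stood at 0.17 and 0.29 log2 units. Of all 35 genes, 8 (Dkc1, Gnl3, Ncl, Nop56, Nop58, Ppan, Tsr1 and Wdr43) host 23 annotated snoRNA genes on their own strand, and gene-level values cannot separate host exons from any snoRNA reads assigned to them. A further limit is that 17 members overlap a gene on the opposite strand, and the sources used here do not state the strand setting of the counting.

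The 12 small subunit factors had a median of 0.18 in KO CMP, and all 12 were positive. Nop14 (chromosome 5, 34638536 to 34660148, minus strand), a component of the small subunit processome, measured 78.5, 73.5, 82.1 and 78.9 CPM in KO CMP libraries 1 to 4, against 66.1, 68.1, 67.4 and 67.8 CPM in WT CMP libraries 1 to 4. The helicase Ddx10 (chromosome 9, 53098635 to 53248053, minus strand) measured 83.2, 87.0, 76.9 and 76.6 CPM in KO CMP libraries 1 to 4, against 68.4, 74.9, 65.5 and 68.3 CPM in WT CMP libraries 1 to 4. Neither gene overlapped between genotypes, with a narrow margin for Ddx10, whose lowest KO CMP value was 76.6 CPM and highest WT CMP value 74.9 CPM. Their log2 fold changes were 0.22 ± 0.06 for Nop14 (edgeR adjusted p = 0.231) and 0.23 ± 0.06 for Ddx10 (adjusted p = 0.217). The processome protein Wdr43 measured 204, 191, 186 and 182 CPM in KO CMP libraries 1 to 4, against 186, 178, 149 and 162 CPM in WT CMP libraries 1 to 4. Nob1, the nuclease that makes the final cut at the end of the small subunit rRNA, measured 95.8, 85.3, 104 and 112 CPM in KO CMP libraries 1 to 4, against 92.0, 84.0, 91.4 and 106 CPM in WT CMP libraries 1 to 4. Both overlapped between genotypes, at 0.18 ± 0.09 log2 units for Wdr43 and 0.09 ± 0.09 for Nob1. Rrp9, which binds the U3 snoRNA (a guide of the early cuts), stood at 0.29, the assembly factor Bysl at 0.21 and Rrp12, an export factor in yeast, at 0.18. The processome proteins Utp20, Utp18 and Utp15 stood at 0.17, 0.16 and 0.14, the late factor Tsr1 at 0.11 and Heatr1, a processome protein also linked to RNA polymerase I transcription, at 0.05. Utp20 and Heatr1 became -0.02 and -0.11 without the 3 Xist libraries. Heatr1 became -0.03 without KO CMP library 2 and -0.05 without WT CMP library 4. In KO CMP libraries 3 and 4 against WT CMP libraries 3 and 4, all 12 were positive (0.07 or more).

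The large subunit factors had the lowest class median over all libraries, 0.12 over 10 genes, again with all 10 positive. That rank did not hold in both number sets: the class stood at 0.03 with 5 of 10 positive in KO CMP libraries 1 and 2, which hold Xist and stromal transcripts, and at 0.23 in KO CMP libraries 3 and 4, where the small subunit factors stood at 0.21 and the polymerase pair at 0.11, each against WT CMP of the same numbers. The helicase Ddx21, which also acts on polymerase I transcription, measured 409.5, 457, 341 and 337 CPM in KO CMP libraries 1 to 4, against 353, 346, 304 and 285 CPM in WT CMP libraries 1 to 4. Pes1, a member of the PeBoW complex with Bop1 and Wdr12, measured 184, 167, 207 and 218 CPM in KO CMP libraries 1 to 4, against 177, 192, 175 and 192 CPM in WT CMP libraries 1 to 4. Ddx21 overlapped because WT CMP libraries 1 and 2 lay above KO CMP libraries 3 and 4, and Pes1 had its lowest value in KO CMP library 2 and its highest in KO CMP library 4. Their log2 fold changes were 0.26 ± 0.11 for Ddx21 (edgeR adjusted p = 0.385) and 0.08 ± 0.08 for Pes1 (adjusted p = 0.788). Bop1 and Wdr12 stood at 0.13 and 0.12 log2 units. Nop16 stood at 0.26, the rRNA methyltransferase Nop2 at 0.18, Nip7 at 0.12, Ppan at 0.11, Rrs1, which in yeast helps to bring a small RNA-protein particle to the growing large subunit, at 0.10 and Rrp1b at 0.08. Rrp1b became -0.02 without the 3 Xist libraries. In KO CMP libraries 3 and 4 against WT CMP libraries 3 and 4, all 10 were positive.

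**Figure D3:**
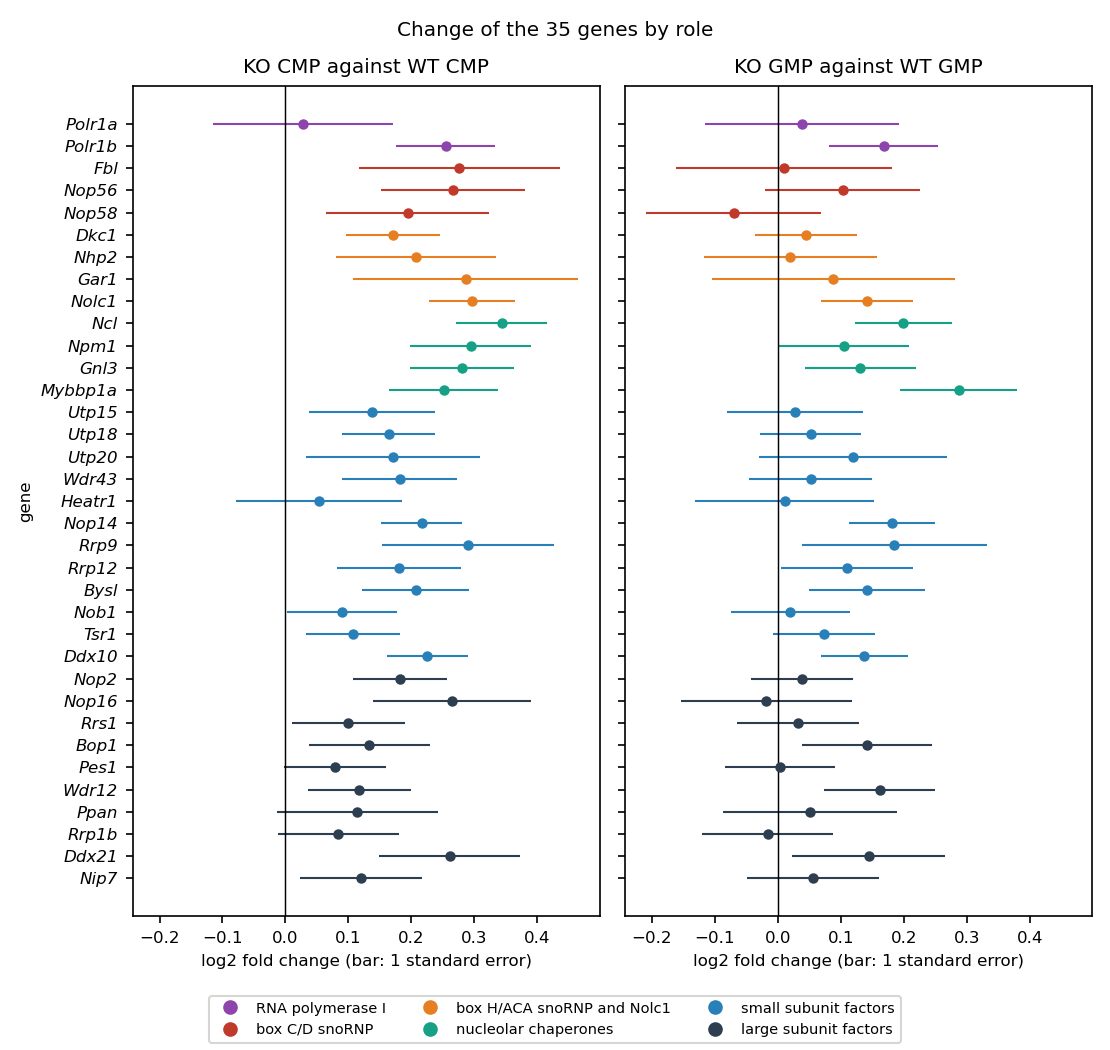
Log2 fold change of each of the 35 genes (y axis, coloured by role) in KO CMP against WT CMP (left) and KO GMP against WT GMP (right); bars are 1 standard error of the edgeR fit. All 35 points lie above 0 in CMP (median 0.18) and 32 of 35 in GMP (median 0.07).

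In KO GMP against WT GMP the list lay closer to 0. 32 of 35 genes were positive (51.9% of all tested genes), with a median log2 fold change of 0.07, against 0.01 over all tested genes. edgeR called 0 members higher and 0 lower (0.0% of all tested genes in each direction), DESeq2 called 0 members (0.316% of all tested genes higher), and 3 members had an unadjusted edgeR p under 0.05, all higher (4.49% of all tested genes). Mybbp1a measured 685, 515 and 505 CPM in KO GMP libraries 1, 3 and 4, against 460.3, 485, 463 and 455 CPM in WT GMP libraries 1 to 4. Ncl measured 1744, 1723 and 1729 CPM in KO GMP libraries 1, 3 and 4, against 1596, 1501, 1373 and 1564 CPM in WT GMP libraries 1 to 4. Nop14 measured 75.5, 73.4 and 72.9 CPM in KO GMP libraries 1, 3 and 4, against 61.4, 61.2, 68.3 and 69.9 CPM in WT GMP libraries 1 to 4. None of the 3 overlapped between genotypes, and the high value of Mybbp1a came from KO GMP library 1. Their log2 fold changes were 0.29 ± 0.09 for Mybbp1a (edgeR adjusted p = 0.618), 0.20 ± 0.08 for Ncl (adjusted p = 0.701) and 0.18 ± 0.07 for Nop14 (adjusted p = 0.674). Nolc1, Ddx10 and Wdr12 also had every KO GMP library above every WT GMP library, which makes 6 such members (3.64% of all tested genes). For 17 members each of the 3 KO GMP libraries lay above the WT GMP library of its number (14.2% of all tested genes). The 3 genes below 0 were Nop58 (-0.07), Nop16 (-0.02) and Rrp1b (-0.02). Without KO GMP library 1 and the 2 Xist libraries of CMP, 28 of 35 were positive with a median of 0.09. That fit likewise sets KO GMP libraries 3 and 4 against WT GMP libraries of both number sets. KO GMP libraries 3 and 4 lay above all 4 WT GMP libraries for 12 members (8.93% of all tested genes).

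The KO effect in GMP minus that in CMP was tested as a difference within the same fit. edgeR called 0 members in either direction (0.0% of all tested genes each), and 0 members were higher or lower at an unadjusted p under 0.05 (2.12% and 0.85% of all tested genes), while DESeq2 also called 0. The median difference was -0.10, and 4 of 35 members were positive (54.3% of all tested genes). The gene with the smallest p was Nolc1, at 0.30 log2 units in CMP and 0.14 in GMP. A difference between the cell types was not detectable gene by gene, with standard errors of the difference such as 0.105 for Ncl and 0.21 for Polr1a. Without KO GMP library 3 the median difference was -0.07.

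GMP against CMP within one genotype showed few members past the threshold, although the cell types differed widely over all genes. In WT GMP against WT CMP, edgeR called 1 member higher and 0 lower, against 11.3% of all tested genes higher and 14.2% lower. Pes1 measured 234, 219, 232 and 229 CPM in WT GMP libraries 1 to 4, against 177, 192, 175 and 192 CPM in WT CMP libraries 1 to 4. The groups did not overlap, and the log2 fold change was 0.31 ± 0.08 (edgeR adjusted p = 0.0123). Nolc1 was the other member without overlap (14.8% of all tested genes had none upward), at 273, 271, 246 and 257 CPM in WT GMP against 238, 246, 226 and 243 CPM in WT CMP, and it did not pass (0.14 ± 0.07, adjusted p = 0.162). With the library number as a block, edgeR called 5 of 35 members higher (Pes1, Heatr1, Nop16, Utp15 and Wdr12) and 0 lower, against 16.2% and 18.0% of all tested genes in that fit. DESeq2 called 2 higher (13.6% of all tested genes), and without WT CMP library 2 edgeR called 2. At an unadjusted p under 0.05, 3 were higher and 0 lower (17.6% and 20.2% of all tested genes). The list median was 0.07, with 28 of 35 positive (48.4% of all tested genes). That median was 0.03 without WT GMP library 1, 0.04 without WT CMP library 3, 0.10 without WT GMP library 3 and 0.12 without WT CMP library 2.

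In KO GMP against KO CMP the members lay around 0, with a median of -0.02 and 15 of 35 positive (47.6% of all tested genes). Without KO CMP library 4 the median was 0.005, without any 1 of KO CMP libraries 1 and 2 and KO GMP libraries 1 and 4 it lay between -0.056 and -0.035, and without the 3 Xist libraries it was -0.07. edgeR called 1 member higher and 0 lower, against 10.7% and 10.5% of all tested genes, and at an unadjusted p under 0.05 it gave 2 higher and 1 lower (15.9% and 17.4%). Wdr12 measured 126, 119 and 121 CPM in KO GMP libraries 1, 3 and 4, against 106, 94.0, 98.2 and 108 CPM in KO CMP libraries 1 to 4. The groups did not overlap, and the log2 fold change was 0.27 ± 0.09 (edgeR adjusted p = 0.0442). Pes1 was also above KO CMP in every KO GMP library (13.4% of all tested genes), while Nop58 and Dkc1 were below it in every one (14.5% of all tested genes). The call on Wdr12 was lost without any 1 of KO CMP libraries 1, 2 and 3, KO GMP libraries 1, 3 and 4, WT CMP libraries 1 and 4 and WT GMP libraries 1 to 4, each time leaving 0 members higher, while 2 were called without KO CMP library 4. Without KO CMP library 2, 1 member was called lower. With the library number as a block, Heatr1 and Wdr12 were called higher and Gar1, Fbl and Nob1 lower, against 14.6% and 14.0% of all tested genes in that fit. Without the 3 Xist libraries 0 were called higher and 2 lower, against 1799 and 1968 of all tested genes in that fit. DESeq2 called 2 higher and 0 lower (12.1% and 14.1% of all tested genes).

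**Figure D4:**
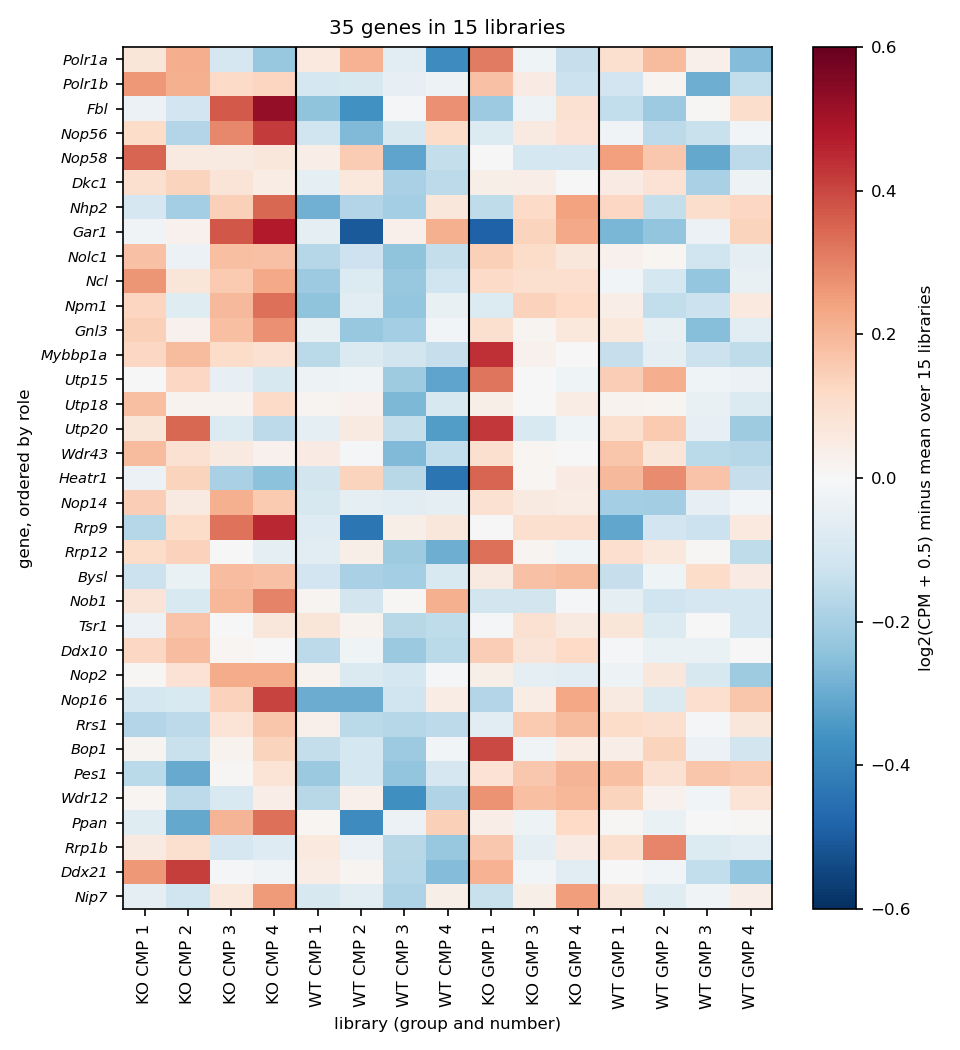
Log2(CPM + 0.5) of each gene (rows, ordered by role) in each library (columns, by group and number) minus its mean over the 15 libraries, in colour from -0.6 (blue) to 0.6 (red). KO CMP columns are mostly red and WT CMP columns mostly blue, and within a group libraries 1 and 2 differ from 3 and 4 in which genes are high: Fbl, Gar1 and Rrp9 are high in KO CMP 3 and 4, Polr1a, Utp20 and Ddx21 in KO CMP 1 and 2.

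Which members were high differed with the library number, and the levels of many other tested genes did so too. Within WT CMP, libraries 1 and 2 against libraries 3 and 4, edgeR called 5 members higher (12.3% of all tested genes) and 2 lower (10.6%). Among the 35 members, the count called higher was near the share of all tested genes, and the count called lower was under it. Fbl measured 279.8 and 257 CPM in WT CMP libraries 1 and 2, against 329 and 401 CPM in libraries 3 and 4. Gar1 measured 85.9 and 62.7 CPM in libraries 1 and 2, against 90.9 and 103 CPM in libraries 3 and 4. Nop58 measured 277 and 299.5 CPM in libraries 1 and 2, against 217 and 244 CPM in libraries 3 and 4. Fbl and Gar1 were thus lower and Nop58 higher in both libraries of the first pair. The log2 fold changes were -0.44 ± 0.10 for Fbl (edgeR adjusted p = 0.008), -0.39 ± 0.12 for Gar1 (adjusted p = 0.0432) and 0.32 ± 0.10 for Nop58 (adjusted p = 0.0374). The other 4 called higher were Ddx21 (0.25), Utp15 (0.24), Rrp12 (0.24) and Wdr43 (0.23). With the library number as a block, 8 were called higher and 4 lower (15% and 12.5% of all tested genes in that fit). With 1 library left out the count of higher members ran from 0 to 6 and that of lower ones from 0 to 4. It was 0 and 0 without WT CMP library 2 or WT CMP library 4, 1 higher and 4 lower without WT CMP library 1, and 2 higher and 1 lower without KO GMP library 3 or KO GMP library 4. Without any 1 of KO CMP libraries 3 and 4 and WT GMP libraries 1 and 2, 1 was called lower.

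In WT GMP, libraries 1 and 2 against libraries 3 and 4, edgeR called 2 members higher (3.16% of all tested genes) and 0 lower (5.45%). Nop58 measured 319.9 and 302 CPM in libraries 1 and 2, against 218 and 242 CPM in libraries 3 and 4. Wdr43 measured 201 and 188 CPM in libraries 1 and 2, against 159.9 and 159 CPM in libraries 3 and 4. Both were higher in the first pair without overlap, by 0.44 ± 0.10 for Nop58 (edgeR adjusted p = 0.0206) and 0.29 ± 0.07 for Wdr43 (adjusted p = 0.0269). With the library number as a block 4 were called higher and 1 lower (5.03% and 7.38% of all tested genes in that fit), and DESeq2 called 4 higher (5.7%). The count was 0 without WT GMP library 2, 3 or 4 and 1 without WT GMP library 1, KO GMP library 3 or KO GMP library 4.

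The difference between the number sets varied with transcript length, among the members and over all tested genes. Across the 35 genes, the log2 fold change of WT CMP libraries 1 and 2 against 3 and 4 and the log2 length of the longest principal annotated transcript had a Pearson r of 0.71 and a Spearman rho of 0.72 (n = 35 genes from the same 4 libraries, which are not independent replicates). Across 12893 tested genes with such a transcript the same r and rho were 0.15 and 0.28. In WT GMP they were 0.51 and 0.57 for the members and 0.07 and 0.20 for the tested genes. The 17 members with transcripts of 3000 bases or more had a median of 0.21 in WT CMP, with 14 positive, and the 18 shorter ones a median of -0.02, with 6 positive. Over all tested genes the medians were 0.11 for longer and -0.11 for shorter transcripts, so the step between long and short transcripts is about as large over all tested genes as in the members. Nop58, with a principal transcript of 1713 bases, lay apart from this order at a log2 fold change of 0.32. For KO CMP against WT CMP over all libraries the relation was weaker and of the other sign (r and rho of -0.30 in the members, and -0.02 and -0.13 in all tested genes), and the medians were 0.18 for the longer members and 0.20 for the shorter ones. In KO CMP against WT CMP libraries 1 and 2 r and rho were -0.01 and -0.03 in the members, and in libraries 3 and 4 they were -0.52 and -0.50, against -0.09 and -0.31 over all tested genes. In KO GMP against WT GMP the sign was the opposite, with r and rho of 0.31 in the members and 0.03 and 0.02 over all tested genes. The medians there were 0.12 for the longer members and 0.05 for the shorter ones, against 0.01 for both lengths over all tested genes. Whether RNA quality or library preparation differs between the number sets, or between KO and WT libraries of a set, was not tested.

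**Figure D5:**
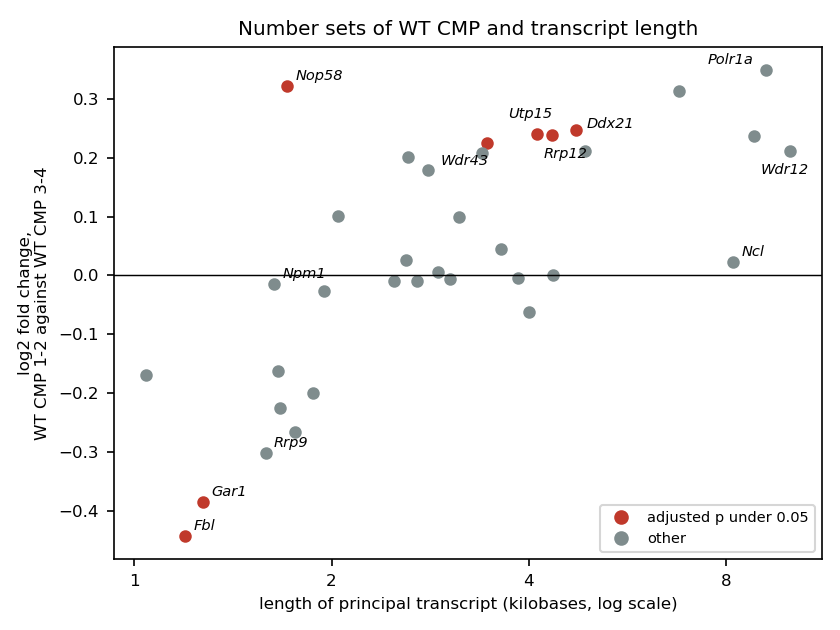
Log2 fold change of WT CMP libraries 1 and 2 against WT CMP libraries 3 and 4 (y axis) against the length of the longest principal transcript in kilobases (x axis, log scale) for the 35 genes. The 7 red points are past the edgeR threshold; longer transcripts lie higher (Pearson r of 0.71), with Fbl and Gar1 lowest and Nop58 high for its length.

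Given this split, KO was compared with WT within each number set, in a fit with 1 coefficient for every combination of group and set. In KO CMP libraries 1 and 2 against WT CMP libraries 1 and 2, edgeR called 5 members higher (8.23% of all tested genes) and 0 lower (10.2%). Their log2 fold changes were 0.34 ± 0.08 for Polr1b (adjusted p = 0.0105), 0.32 ± 0.09 for Ncl (adjusted p = 0.0207), 0.31 ± 0.07 for Ddx21 (adjusted p = 0.00945), 0.28 ± 0.06 for Mybbp1a (adjusted p = 0.00749) and 0.25 ± 0.07 for Ddx10 (adjusted p = 0.0262). The median was 0.11, 30 of 35 were positive (51.3% of all tested genes), and at an unadjusted p under 0.05 9 were higher and 0 lower (14.8% and 15.9%). The count fell to 2 without WT CMP library 1 and to 3 without WT CMP library 2. The call on Ddx10 was also lost without KO CMP library 2, 3 or 4, KO GMP library 3 or 4 or WT GMP library 1, those on Ncl and Polr1b without KO CMP library 1, and that on Ddx21 without KO CMP library 2. DESeq2 called 8 higher (11.8% of all tested genes). Both KO libraries of this set are among those that hold Xist and stromal transcripts, so genotype and what else sets them apart cannot be told apart. WT CMP libraries 1 and 2 also lay apart from WT CMP libraries 3 and 4. Their primary granule markers summed to 21850 and 24310 CPM, against 11420 and 12330 CPM in WT CMP libraries 3 and 4.

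KO CMP libraries 3 and 4 were compared with WT CMP libraries 3 and 4, and none of them holds an excess of Xist or stromal transcripts. These KO CMP libraries kept more Trappc1 (11.7 and 13.4 CPM) than KO CMP libraries 1 and 2 (5.56 and 3.83 CPM). All 35 members were positive (47.2% of all tested genes), with a median of 0.25 (1.19-fold). The change fell with transcript length, with a Spearman rho of -0.50 in the members and -0.31 over all tested genes. edgeR called 0 higher and 0 lower (0.00659% and 0.0% of all tested genes), and at an unadjusted p under 0.05 28 were higher and 0 lower (6.18% and 5.21%). DESeq2 called 9 higher (0.481% of all tested genes): Npm1, Mybbp1a, Bysl, Wdr43, Nolc1, Rrs1, Ncl, Nop14 and Nop2. Npm1 had the largest change, 0.40 ± 0.10 (edgeR adjusted p = 0.293), with Nolc1 at 0.37 ± 0.08 (adjusted p = 0.234), Ncl at 0.36 ± 0.09 (adjusted p = 0.247) and Bysl at 0.33 ± 0.07 (adjusted p = 0.234). edgeR called 1 without KO CMP library 1 or KO CMP library 2, which enter this comparison through the shared fit and not as libraries compared.

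By number, the mean log2 difference of the 35 genes between a KO CMP library and the WT CMP library of its number was 0.14, 0.12, 0.26 and 0.23 for numbers 1 to 4, with 28, 27, 33 and 35 of the 35 genes higher in KO. In GMP it was 0.06, 0.10 and 0.11 for numbers 1, 3 and 4, with 21, 27 and 34 genes higher in KO. Over all tested genes, 46.6% to 52.9% were higher in KO in these 7 pairs.

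KO GMP library 1 against WT GMP libraries 1 and 2 rests on 1 KO library that holds Xist. The variation of that library is taken to equal that of the other libraries. Its levels of markers of other cell states also lay apart from those of the other GMP libraries (below). edgeR called 2 members higher (11.0% of all tested genes) and 0 lower (9.0%), and 21 of 35 were positive (50.5%). At an unadjusted p under 0.05, 7 were higher and 0 lower (17.4% and 15.6%). The 2 called were Mybbp1a at 0.54 ± 0.07 (adjusted p = 0.000342) and Nop14 at 0.30 ± 0.08 (adjusted p = 0.0191). The count was 1 without WT GMP library 1 or 2, where Nop14 was lost, and 4 without WT GMP library 3 or 4. With the library number as a block it was 3, with Utp20 added, and 0 lower (10.8% and 9.75% of all tested genes in that fit), and DESeq2 called 5 higher (12.9%). In KO GMP libraries 3 and 4 against WT GMP libraries 3 and 4, 34 of 35 were positive (47.9% of all tested genes) with a median of 0.12. edgeR called 0 in either direction (0.00659% of all tested genes each), DESeq2 called 0, and at an unadjusted edgeR p under 0.05 5 were higher and 0 lower (2.07% and 3.12% of all tested genes).

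Averaged over the CMP and GMP effects, numbers 1 and 2 gave 9 members higher (15.9% of all tested genes) and 0 lower (15.4%): Polr1b, Nolc1, Ncl, Mybbp1a, Utp20, Nop14, Rrp12, Ddx10 and Ddx21. The largest was Mybbp1a at 0.41 ± 0.05 (edgeR adjusted p = 4.70e-05), and the median was 0.09. All 3 KO libraries of this average hold Xist and stromal transcripts, and its GMP effect comes from KO GMP library 1 alone, where Mybbp1a stood apart at 685 CPM. At an unadjusted p under 0.05, 10 were higher and 1 lower (21.1% and 20.3%). Numbers 3 and 4 gave 0 higher and 0 lower (0.0329% and 0.0395% of all tested genes) with all 35 positive, a median of 0.18 and 26 members at an unadjusted p under 0.05 (6.12% of all tested genes higher). DESeq2 called 12 there (1.17% of all tested genes). Without KO CMP library 1 or KO CMP library 2 edgeR called 2 higher in numbers 3 and 4, and without WT CMP library 2 it called 1 lower in numbers 1 and 2. In numbers 1 and 2 the call on Nolc1 (adjusted p = 0.049) was kept, among the fits with 1 library left out, only without KO CMP library 2, KO GMP library 1, WT CMP library 3 or WT CMP library 4, and it was lost with the library number as a block.

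The difference of the KO effect between the sets was tested directly. In CMP, numbers 1 and 2 minus numbers 3 and 4, edgeR called 0 members higher (3.05% of all tested genes) and 1 lower (4.59%). Rrs1 measured 79.6 and 80.8 CPM in KO CMP libraries 1 and 2, against 91.9 and 80.3 CPM in WT CMP libraries 1 and 2. It measured 95.3 and 101 CPM in KO CMP libraries 3 and 4, against 79.8 and 80.7 CPM in WT CMP libraries 3 and 4. Its effect differed by -0.39 ± 0.11 (edgeR adjusted p = 0.0439), and the count was 0 without any 1 of KO CMP libraries 1 to 4, KO GMP libraries 3 and 4, WT CMP libraries 1, 3 and 4 and WT GMP library 2, and with RLE size factors. In GMP edgeR called 1 higher (6.27% of all tested genes) and 0 lower (4.36%), namely Mybbp1a, whose effect differed by 0.38 ± 0.10 (adjusted p = 0.0265). That count was 0 without KO GMP library 3 or 4 or WT GMP library 1 or 3.

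Further genes of the pathway were mostly positive in KO CMP as well. Of 108 further ribosome biogenesis genes, all tested, 98 were positive in KO CMP against WT CMP with a median of 0.15, and edgeR called 0. Those with the smallest p were the export adaptor Nmd3 (0.25), the kinase Riok2 (0.33), Rsl1d1 (0.29) and the processome protein Nol11 (0.31). In KO GMP against WT GMP, 79 were positive with a median of 0.06 and 0 called. In KO CMP libraries 1 and 2 edgeR called 15 higher and 0 lower (8.23% and 10.2% of all tested genes), led by Riok2 (0.46 ± 0.09, adjusted p = 0.00277), and in libraries 3 and 4 it called 0 with a median of 0.19 and 101 positive. In WT GMP against WT CMP it called 11 of the 108 higher, near the 11.3% of all tested genes, and 0 lower (14.2%), led by the late small subunit factor Ltv1 (0.55 ± 0.08, adjusted p = 0.000451). Within WT CMP, libraries 1 and 2 against 3 and 4, 15 of the 108 were called higher and 12 lower, near the 12.3% and 10.6% of all tested genes.

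Myc, the transcription factor known to drive this program, measured 318, 221, 314 and 382 CPM in KO CMP libraries 1 to 4, against 233, 259.5, 224 and 296 CPM in WT CMP libraries 1 to 4. KO CMP library 2 lay below all 4 WT CMP libraries and the other 3 KO CMP libraries above them. The log2 fold change of Myc was 0.29 ± 0.16 (edgeR adjusted p = 0.518). Of 11 genes of the MYC, MAX and MXD family, edgeR called 0 in KO CMP against WT CMP, 3 were positive and the median was -0.21. Mxd4, a repressor that competes for MAX, stood at -0.51 ± 0.10 (adjusted p = 0.192). In KO CMP libraries 1 and 2, 1 was called higher, Mycn, and 3 lower, Mlx, Mxi1 and Mxd4 (8.23% and 10.2% of all tested genes). In KO CMP libraries 3 and 4 against WT CMP libraries 3 and 4, edgeR called 0 of the 11. The family also differed within WT CMP: libraries 1 and 2 against 3 and 4 gave 4 higher and 2 lower (12.3% and 10.6%). Of 10 snoRNA host genes with little or no coding sequence, edgeR called 0 in KO CMP against WT CMP, with 7 positive and a median of 0.08. Within WT CMP, libraries 1 and 2 against 3 and 4, 5 of these 10 were called lower (10.6% of all tested genes). Among the members with a matched promoter, the 7 with CACGTG had a median log2 fold change of 0.17 in KO CMP against WT CMP and the 23 without it one of 0.21.

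Markers of other cell states were summed in the same libraries. The summed level of 8 cell cycle markers was 2510 to 2770 CPM in KO CMP and 2390 to 2560 CPM in WT CMP, with 7 of 8 positive, and 2770 to 2930 CPM in KO GMP against 2910 to 3030 CPM in WT GMP. That of 5 primary granule markers was 4590 to 12200 CPM in KO CMP and 11400 to 24300 CPM in WT CMP, with 0 of 5 positive. The gap lay in numbers 1 and 2, at 4586 and 5221 CPM in KO CMP against 21850 and 24310 CPM in WT CMP, while numbers 3 and 4 had 11680 and 12170 CPM in KO CMP against 11420 and 12330 CPM in WT CMP. That of 5 megakaryocyte markers was 430 to 703 CPM in KO CMP, without overlap with 337 to 400 CPM in WT CMP, and 5 of 5 were positive. That of 5 late neutrophil markers was 2.53 and 4.63 CPM in KO CMP libraries 1 and 2 against 219 and 250.5 CPM in WT CMP libraries 1 and 2, and 42.2 and 47.9 CPM in KO CMP libraries 3 and 4 against 22.7 and 31.6 CPM in WT CMP libraries 3 and 4. That of 5 erythroid markers was 48.9 to 103 CPM in KO CMP and 41.4 to 61.6 CPM in WT CMP, and that of 5 stem and multipotent markers 489 to 532 CPM in KO CMP and 397 to 621 CPM in WT CMP. The B lineage and the T and NK markers, 5 each, summed to 24.1 to 47.4 and 116 to 157 CPM in KO CMP, against 33.2 to 42.2 and 108 to 253 CPM in WT CMP. In GMP, KO GMP library 1 lay apart from the others. Its primary granule sum was 21760 CPM, against 39710 to 45030 CPM in the other GMP libraries. Its late neutrophil sum was 10.6 CPM, against 254.5 to 716 CPM. Its megakaryocyte sum was 297 CPM, against 75.7 to 98.8 CPM, and its stem and multipotent sum 186 CPM, against 69.2 to 84.7 CPM. The part of these cell states in the levels of the 35 genes was not tested.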

How the data were processed

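The authors deposited one table per library of values per gene symbol, taken here as estimated counts because 1 unit may not be 1 fragment (below); all were whole numbers, so rounding changed none. A SMARTER mRNA-Seq kit was used, per the labels' protocols, and the submitters' processing notes name HISAT and mm10. The sources used here do not give the counting tool, annotation, filters, strand setting or versions. Of 40915 low values (1 to 40), 38.0% were multiples of 4, against 25% if spread evenly, so count models may overstate precision. Totals were 61.3 to 120.3 M units.

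Genes passing edgeR's low-count filter (15181, all 35 members among them) were fitted in R 4.3.3 with edgeR 4.0.16 (TMM factors, quasi-likelihood test, limma 3.58.1), once over the 4 groups (11 residual degrees of freedom) and once over groups split by number set (7). Adjustment (Benjamini-Hochberg, threshold 0.05) ran over every tested gene. DESeq2 1.42.0, RLE factors, other filters, left-out libraries and the library number as a block were alternatives, and the scripts were tested on simulated data. Same-numbered libraries of different groups deviated together (correlations 0.2 to 0.52), and on that ground the numbers were taken to pair libraries, although the labels do not say what a number marks. Libraries of other numbers in the same set (1 and 2, or 3 and 4) correlated about as much (up to 0.27 to 0.47), so these values do not separate single numbers from the sets.

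Members, role classes, gene lists and number sets were chosen with earlier results of these data known. Library values are given for the 2 members of each role class with the highest level per merged exon length and for up to 8 members of smallest p per comparison, and up to 4 genes of smallest p from the wider pathway list. Coordinates and transcript lengths come from GENCODE M21 (GRCm38).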

Additional observations from a re-analysis of the deposited data

Results flagged for a closer look

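In 4 of 105 groups of 4 libraries tested, 1 library lay far from the other 3 by Dixon's criterion, and chance flags about 1 in 20 groups. These were Nop58 in KO CMP library 1 (343.8 CPM, high), Nolc1 in KO CMP library 2 (261.3 CPM, low), Rrs1 in WT CMP library 1 (91.9 CPM, high) and Nhp2 in WT GMP library 2 (161.7 CPM, low). KO CMP libraries 1 and 2 are also among the 3 libraries with Xist. The KO effect differed between number sets, numbers 1 and 2 minus numbers 3 and 4, for Rrs1 in CMP (-0.393 on the log2 scale) and for Mybbp1a in GMP (0.382), each past the edgeR threshold after adjustment over all tested genes. Without WT CMP library 1 the first was no longer called. The second has 1 KO GMP library, number 1, in its first set.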

How the results depend on the processing

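Counts of members called stayed within 1.5 times the main count in 559 recomputed values over all comparisons and alternatives and moved in 85. Many of the main counts were 0. Values of single genes, with or without a call in the main fit, were the same in 1600 cases. They were weaker in 114, stronger in 6 and of the other sign in 8. The cause was not tested. DESeq2 called 6 members higher in KO CMP against WT CMP, 2 in WT GMP against WT CMP, 2 in KO GMP against KO CMP, 8 in KO CMP against WT CMP for numbers 1 and 2, 9 for numbers 3 and 4, 5 in KO GMP library 1, 12 in the mean for numbers 3 and 4 and 4 in WT GMP libraries 1 and 2 against 3 and 4. With the replicate block, pairing libraries by number, 5 were higher in WT GMP against WT CMP, 2 higher and 3 lower in KO GMP against KO CMP, 8 higher and 4 lower in WT CMP libraries 1 and 2 against 3 and 4, and 4 higher and 1 lower in the same comparison of WT GMP; in no other comparison did the block move the count of calls by over 1.5 times. With the number set as a covariate, 6 members were higher and 0 lower in WT GMP against WT CMP. Over all tested genes, that fit called 2569 higher and 2870 lower. In KO GMP against KO CMP it called 3 members higher and 2 lower, against 2229 and 2266 of all tested genes. In that last comparison 0 were higher with RLE factors, with no filter, or without the 3 Xist libraries (2 lower). RLE factors left 0 lower for the CMP set difference, no filter gave 1 higher in the mean for numbers 3 and 4, and a filter of 1 CPM gave 4 in KO GMP library 1.

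Leaving out 1 library at a time gave 1 to 2 higher in WT GMP against WT CMP, 0 to 2 higher and 0 to 1 lower in KO GMP against KO CMP, 2 to 5 in KO CMP numbers 1 and 2, 0 to 1 in numbers 3 and 4, 1 to 4 in KO GMP library 1, 6 to 10 higher and 0 to 1 lower in the mean for numbers 1 and 2, 0 to 2 for numbers 3 and 4, 0 to 1 for each set difference, 0 to 6 higher and 0 to 4 lower in the WT CMP sets and 0 to 3 in the WT GMP sets. In KO CMP against WT CMP the member median stayed between 0.16 and 0.20. An alternative chosen after seeing the data left out the 3 Xist libraries. The log2 changes of Polr1a, Heatr1, Utp20 and Rrp1b then became -0.15, -0.11, -0.02 and -0.015. It compares KO CMP libraries 3 and 4 with WT CMP libraries of both number sets. Against WT CMP libraries 3 and 4 alone, all 35 members were positive (smallest 0.05). With 1 library left out Polr1a ranged from -0.081 to 0.116 and Heatr1 from -0.046 to 0.153.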
